A study of Rattus norvegicus with 6 samples.

Results

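The collagen genes of the rat dorsal root ganglion were the 43 features of the deposited table, of 23800 in all, whose symbol has the form Col, a number, a and a number. The choice was by symbol alone and set no condition on the level or the difference of a gene. Of the 43 genes, 30 had a level of 1 or more FPKM (fragments scaled by the length of the transcript and the size of the library) in 3 or more of the 6 libraries, which was the condition for a test, and 13 did not.

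Collagens are proteins of 3 chains wound into a triple helix, most of them secreted and some held in the cell surface. Fibrillar collagens form the cords that give nerve and ganglion sheaths their strength, type IV collagen forms the sheet-like network of the basement membranes around Schwann cells, satellite glia and vessels, and the remaining classes link, coat or anchor these structures. In the peripheral nervous system both fibroblasts and Schwann cells make them. FPKM are scaled to length, so the levels of chains can be set side by side where the gene models behind the values are complete. Whether they are complete was not tested, so ranks and ratios between genes are uncertain to that extent.

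The rats were Sprague Dawley, an outbred strain, of a sex and an age that the labels do not state. All received MRMT-1 cells, a rat mammary carcinoma line, in 10 µL of medium in the left tibia. The bone cancer pain group (BCP) received living cells and the sham group (sBCP) boiled cells, so both had the injection. On day 17 the L3 to L5 ganglia of the injected side were taken, and polyadenylated RNA was sequenced in replicates 1, 2 and 3 of BCP (n = 3) and in replicates 1, 3 and 4 of sBCP (n = 3). Values below are given in that order of libraries. Whether a sample pooled animals is not stated.

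Markers of sensory neurons were at summed levels of 5148 to 5724 FPKM in BCP and 4572 to 5831 FPKM in sBCP, with 0 of 10 tested markers passing. Of 11 skeletal muscle markers tested, 10 were lower in BCP (Acta1 with a difference of -4.38 on the log2(FPKM + 1) scale, limma adjusted p = 0.000478), with sums of 324 to 436 FPKM against 924 to 1361 FPKM. Of these sums 308 to 412 FPKM came from Pvalb, which proprioceptive neurons also express. Muscle holds collagen too, and the part of this tissue in the sBCP values of the collagen genes was not tested. Of 9 bone and cartilage markers 2 were tested, Comp led the list at 4.89 to 6.80 FPKM, Bglap ranged from 1.22 to 6.79 FPKM, Matn1 was listed at 0 in every library, and the sums were 8.68 to 16.2 FPKM in BCP and 9.89 to 13.3 FPKM in sBCP.

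None of the 30 tested collagen genes differed between BCP and sBCP by limma, with 0 higher and 0 lower at an adjusted p under 0.05. Over all 13710 features tested, 0.0146% were called higher and 0.168% lower. At an unadjusted p under 0.05 there was 1 collagen gene of the 30, Col6a5, where 1.98% of all tested features were under it, and the authors' deposited table marks 0 collagen genes as significant. The difference was taken as BCP minus sBCP on the log2(FPKM + 1) scale. It was below 0 for 22 of the 30 genes and above 0 for 8, with a median of -0.08. Over all tested features 54.5% were below 0 and the median was -0.01. Under the other scalings tried, 20 collagen genes were below 0 with median-ratio rescaling (47.9% of all features). With quantile normalization 21 were below 0 (48.2% of all features). The collagen count rested on sBCP replicate 1: without that library 13 of the 30 genes were below 0 and the median was 0.02 (48.6% of all features below 0). Without sBCP replicate 4, 25 were below 0 and the median was -0.185 (58.8% of all features below 0).

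The collagen transcripts together made up 0.147% to 0.204% of the summed FPKM of a library. Their sum was 815, 895 and 707 FPKM in BCP and 996, 851 and 765 FPKM in sBCP. The groups overlapped, with sBCP replicate 1 highest and BCP replicate 3 lowest. In bulk tissue fewer cells of a type and less RNA per cell cannot be told apart. The 11 fibrillar genes made up 55.1% to 61.1% of the sum, the 6 type IV genes 9.58% to 12.3%, the 5 beaded filament genes of type VI 9.12% to 12.4% and the 9 FACIT genes, whose products coat fibrils, 9.11% to 13.0%. The 4 most abundant genes were all fibrillar, namely Col5a3, Col1a1, Col3a1 and Col1a2.

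**Figure D1:**
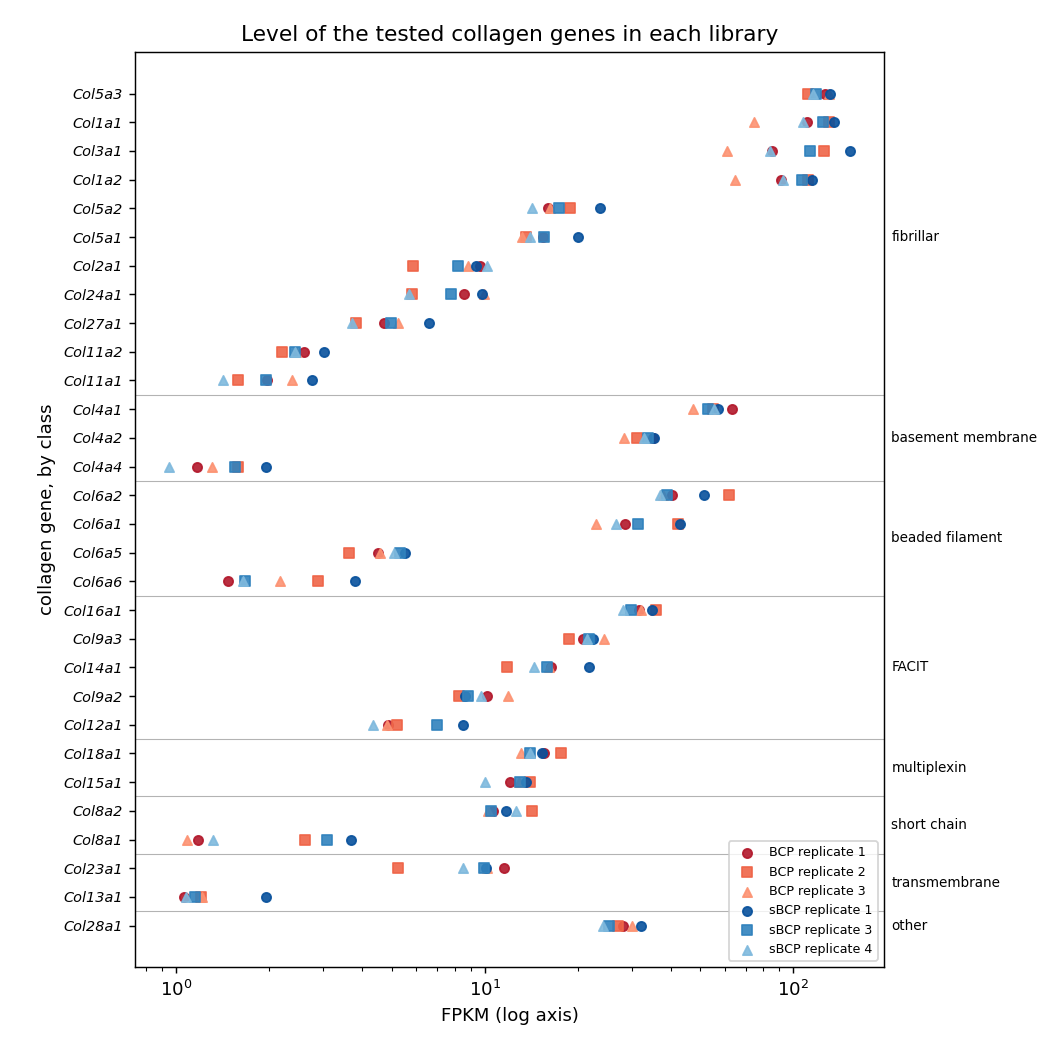
Level of each of the 30 tested collagen genes in FPKM on a log axis, with 1 point per library and genes ordered by class and mean. The 3 BCP libraries are in red shades and the 3 sBCP libraries in blue shades. Col5a3, Col1a1, Col3a1 and Col1a2 lie between 60.8 and 152 FPKM, and the points of both groups intermingle for most genes.

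**Figure D2:**
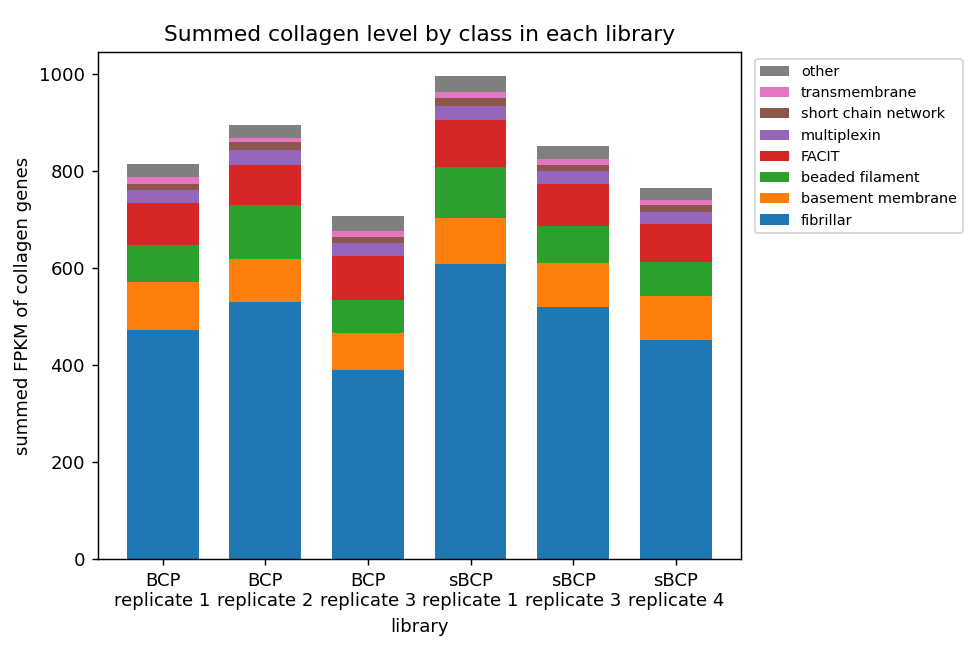
Summed FPKM of all 43 collagen genes in each library, stacked by class from 0. Fibrillar genes make up the largest share in every library, and the total is highest in sBCP replicate 1 (996 FPKM) and lowest in BCP replicate 3 (707 FPKM).

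Among the fibrillar genes, Col5a3 (ENSRNOG00000020525) had the highest mean, 122 FPKM over the 6 libraries. It encodes a chain of type V collagen, a minor partner in fibrils. Its level was 126, 111 and 130.3 FPKM in BCP and 131, 118 and 116 FPKM in sBCP. This 1.17-fold span was narrow, and the groups overlapped. The group means were 123 ± 9.92 and 122 ± 8.14 FPKM (SD, n = 3 each), and the difference was 0.01 with a 95% interval from -0.19 to 0.22.

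The other type V chains were far less abundant. Col5a1, the chain found in nearly all type V collagen, was at 15.4, 13.6 and 13.3 FPKM in BCP and 20.0, 15.6 and 14.0 FPKM in sBCP. Col5a2 was at 16.1, 18.9 and 16.3 FPKM in BCP and 23.7, 17.4 and 14.2 FPKM in sBCP. In both genes sBCP replicate 1 was the highest library and the groups overlapped. Col5a3 was 6.55 to 9.84 times as abundant as Col5a1, a ratio lowest in sBCP replicate 1 and highest in BCP replicate 3. The difference was -0.20 for Col5a1 (95% interval from -0.52 to 0.12) and -0.08 for Col5a2 (from -0.49 to 0.34). Without sBCP replicate 1 they were -0.063 and 0.11, and without sBCP replicate 4 they were -0.31 and -0.24.

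Type I collagen, the main protein of scar, tendon and nerve sheath, is a trimer with more Col1a1 than Col1a2 chains. Col1a1 (ENSRNOG00000003897) was at 111, 130.2 and 74.5 FPKM in BCP and 135, 125 and 108 FPKM in sBCP. Col1a2 (ENSRNOG00000011292) was at 91.3, 112 and 64.9 FPKM in BCP and 115, 106 and 92.5 FPKM in sBCP. BCP replicate 3 was lowest and sBCP replicate 1 highest for both, and BCP replicate 2 lay among the sBCP libraries. The means were 105 ± 28.3 and 122 ± 13.8 FPKM for Col1a1 (SD, n = 3 each), with a difference of -0.25 and a 95% interval from -0.72 to 0.22. For Col1a2 the difference was -0.25 as well, with an interval from -0.70 to 0.20. Without BCP replicate 3 these differences were -0.02 and -0.04, and without BCP replicate 2 they were -0.42 and -0.43.

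Type III collagen, made of Col3a1 chains alone, is the pliable partner of type I in loose tissue. Col3a1 (ENSRNOG00000003357) was at 85.2, 125 and 60.8 FPKM in BCP and 152, 113 and 84.2 FPKM in sBCP, a 2.51-fold span. It followed the order of type I in its extremes, with overlapping groups. The difference was -0.38 with a 95% interval from -1.08 to 0.32 (limma adjusted p = 1.00), and it went from -0.65 without BCP replicate 2 to -0.13 without BCP replicate 3. A feature of 141 bases on the same strand, AABR07067556, lies within the Col3a1 interval on chromosome 9 (52023295 to 52059217 by the table's coordinates, whose build is not stated). It was at 50.8, 72.9 and 40.2 FPKM in BCP and 108, 83.4 and 62.3 FPKM in sBCP, and whether reads were shared between both features was not tested, so the Col3a1 values are uncertain to that extent.

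Promoter windows of RefSeq (GRCr8, 250 bases before to 50 after the start site) were found for 34 of the 43 genes. Col1a2 and Col5a3 are shown because they are abundant fibrillar genes that differed in their span over the libraries, 1.77-fold for Col1a2 and 1.17-fold for Col5a3. Capitals mark letters of 3 promoter motifs searched on both strands. The first is CCAAT, which reads ATTGG on the other strand. A TATA box was searched as TATAAA. The GC box was searched as the letters GGGCGG, and its reverse reads CCGCCC in the printed strand. No matches overlap in the windows printed. The Col1a2 window is chr4:33518307-33518606 on the plus strand and the Col5a3 window chr8:27625899-27626198 on the minus strand.
Col1a2: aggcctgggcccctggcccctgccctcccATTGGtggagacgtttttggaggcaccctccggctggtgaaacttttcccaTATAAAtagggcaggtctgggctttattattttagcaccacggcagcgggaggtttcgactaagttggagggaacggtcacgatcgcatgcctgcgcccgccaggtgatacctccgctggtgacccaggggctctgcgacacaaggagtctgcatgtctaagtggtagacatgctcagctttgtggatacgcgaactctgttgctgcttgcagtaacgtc
Col5a3: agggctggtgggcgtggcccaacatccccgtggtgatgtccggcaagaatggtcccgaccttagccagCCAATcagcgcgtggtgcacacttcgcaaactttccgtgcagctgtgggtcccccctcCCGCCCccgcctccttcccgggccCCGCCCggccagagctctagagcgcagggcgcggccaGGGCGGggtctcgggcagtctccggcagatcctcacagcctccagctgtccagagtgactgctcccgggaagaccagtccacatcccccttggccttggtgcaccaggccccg

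CCAAT was in 12 of the 37 windows of collagen genes and in 37.5% of all 33469 windows, TATAAA in 4 and in 14.2%, and GGGCGG in 20 and in 33.1%. The search for GGGCGG was not planned and was added after the other motifs had been set. The Col1a2 window held 1 CCAAT and 1 TATAAA and no GGGCGG, and the Col5a3 window held 1 CCAAT and 3 GGGCGG and no TATAAA. The TATAAA of Col1a2 begins at base -170 from the start site of RefSeq, and whether it serves that site was not tested. A match is a description of letters, not of binding.

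The remaining fibrillar genes were at lower levels. Col2a1, the main fibril chain of cartilage, was at 9.62, 5.84 and 8.85 FPKM in BCP and 9.34, 8.19 and 10.2 FPKM in sBCP. BCP replicate 2 was lowest and the groups overlapped (difference of -0.19, 95% interval from -0.61 to 0.23). Its cartilage partners Col11a1, at 1.42 to 2.76 FPKM, and Col11a2, at 2.21 to 3.01 FPKM, were present at a fraction of that level. Of other cartilage genes, Comp was at 4.89 to 6.80 FPKM and Acan, the aggrecan of cartilage, at 0.197 to 0.302 FPKM. Col24a1 and Col27a1 encode fibrillar chains with a shorter or interrupted helix. Col24a1 was at 8.58, 5.81 and 9.95 FPKM in BCP and 9.78, 7.81 and 5.69 FPKM in sBCP, and Col27a1 ranged from 3.73 to 6.59 FPKM. The differences of these 4 genes lay between -0.10 and 0.06, and the widest interval was that of Col24a1, from -0.48 to 0.60.

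Among the basement membrane genes, Col4a1 and Col4a2, whose products form the common type IV trimer, were at steady levels. Col4a1 (ENSRNOG00000016281) was at 63.4, 54.7 and 47.2 FPKM in BCP and 56.8, 53.0 and 55.5 FPKM in sBCP. Col4a2 (ENSRNOG00000023972) was at 35.0, 31.2 and 28.2 FPKM in BCP and 35.3, 33.8 and 32.9 FPKM in sBCP. The sBCP values lay inside the span of the BCP values for Col4a1, and BCP replicate 3 was lowest for both. The means of Col4a1 were 55.1 ± 8.12 and 55.1 ± 1.94 FPKM (SD, n = 3 each), with a difference of -0.01 and a 95% interval from -0.27 to 0.25. For Col4a2 the difference was -0.11, with an interval from -0.33 to 0.10. All values of Col4a1 were below all values of Col1a2.

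The other type IV chains, which form trimers restricted to a few basement membranes such as those of the kidney glomerulus, were scarce. Col4a4 passed the minimum in 5 of 6 libraries, at 1.17, 1.59 and 1.31 FPKM in BCP and 1.96, 1.56 and 0.951 FPKM in sBCP (difference of -0.06, 95% interval from -0.50 to 0.38). Col4a3 was at 0.127 to 0.481 FPKM, Col4a5 at 0.239 to 0.800 FPKM and Col4a6 at 0.0327 to 0.252 FPKM, and none of these was tested. Col4a5 was above 0.7 FPKM in BCP replicate 2 and sBCP replicates 1 and 3 and at most 0.273 in the other 3 libraries.

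The type IV genes lie in pairs on opposite strands. By the RefSeq windows, the start sites of Col4a2 and Col4a1 on chromosome 16 are 77 bases apart, those of Col4a4 and Col4a3 on chromosome 9 are 413 bases apart, and those of Col4a6 and Col4a5 on chromosome X are 1415 bases apart. The deposited table places Col4a2 and Col4a1 in the same layout, with 83600 bases between their intervals, and Col4a4 and Col4a3 with 13946. It places Col4a6, ending at base 112473822 of chromosome X, and Col4a5, beginning at base 112769645, further apart than those pairs. Whether its intervals leave out parts of these genes was not tested, and the levels of type IV chains are uncertain to that extent. Both windows of the abundant pair and of the scarce pair of chromosome 9 are shown, since they overlap by 176 and by 88 bases. They are chr16:84885347-84885646 on the plus strand for Col4a1, chr16:84885471-84885770 on the minus strand for Col4a2, chr9:91323740-91324039 on the plus strand for Col4a3 and chr9:91323528-91323827 on the minus strand for Col4a4.
Col4a1: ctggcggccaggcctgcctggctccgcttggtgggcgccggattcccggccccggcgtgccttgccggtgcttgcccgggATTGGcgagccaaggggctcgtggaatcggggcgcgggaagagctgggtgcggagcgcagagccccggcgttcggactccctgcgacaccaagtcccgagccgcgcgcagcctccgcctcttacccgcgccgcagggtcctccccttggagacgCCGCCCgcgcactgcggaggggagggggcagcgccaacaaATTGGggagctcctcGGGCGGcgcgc
Col4a2: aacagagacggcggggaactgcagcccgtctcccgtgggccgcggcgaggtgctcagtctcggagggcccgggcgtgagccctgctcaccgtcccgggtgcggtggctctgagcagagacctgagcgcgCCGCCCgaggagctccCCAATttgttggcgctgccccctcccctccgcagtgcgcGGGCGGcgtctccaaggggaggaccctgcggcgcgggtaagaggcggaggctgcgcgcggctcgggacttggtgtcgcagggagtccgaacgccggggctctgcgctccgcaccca
Col4a3: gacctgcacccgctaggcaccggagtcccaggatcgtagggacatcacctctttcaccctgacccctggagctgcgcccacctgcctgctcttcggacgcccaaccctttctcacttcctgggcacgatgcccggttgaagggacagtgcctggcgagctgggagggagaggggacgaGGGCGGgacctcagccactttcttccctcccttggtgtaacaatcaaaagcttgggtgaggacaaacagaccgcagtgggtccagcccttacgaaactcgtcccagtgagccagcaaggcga
Col4a4: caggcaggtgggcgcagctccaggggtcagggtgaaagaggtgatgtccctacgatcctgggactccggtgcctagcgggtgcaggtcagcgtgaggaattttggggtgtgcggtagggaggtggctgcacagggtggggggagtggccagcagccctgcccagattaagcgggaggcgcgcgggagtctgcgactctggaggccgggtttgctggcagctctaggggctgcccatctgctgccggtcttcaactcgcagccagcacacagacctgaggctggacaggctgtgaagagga

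The Col4a1 window held 2 CCAAT and 2 GGGCGG, with 1 CCAAT at base 25 and 1 GGGCGG at base 40 after the start site. The Col4a2 window held 1 CCAAT and 2 GGGCGG, and all 3 are the same bases as matches of the Col4a1 window, read from the other strand, at chr16:84885621-84885625, chr16:84885581-84885586 and chr16:84885636-84885641. The Col4a3 window held 1 GGGCGG. In the Col4a4 window these 3 motifs were not found.

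Ratios between chains of 1 type were computed for 9 pairs. Col1a1 to Col1a2 stayed between 1.15 and 1.21 in the 6 libraries, a 1.05-fold span, while each chain varied 1.81-fold and 1.77-fold. Col4a1 to Col4a2 was at 1.81, 1.76 and 1.67 in BCP and at 1.61, 1.57 and 1.69 in sBCP, with overlapping groups (exact permutation p = 0.2, adjusted over the 9 ratios 0.6). In 1 of the 9 pairs the groups did not overlap: Col6a1 to Col6a2 was at 0.703, 0.683 and 0.609 in BCP and at 0.840, 0.807 and 0.719 in sBCP. The exact 2-sided permutation p for it was 0.1, the smallest that 3 against 3 allows, and 0.6 when adjusted over the 9 ratios. Col9a3 to Col9a2 ranged from 2.04 to 2.60, Col5a1 to Col5a2 from 0.723 to 0.986 and Col11a2 to Col11a1 from 1.03 to 1.71. Col8a2 to Col8a1 had the widest span, from 3.17 in sBCP replicate 1 to 9.61 in sBCP replicate 4.

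**Figure D3:**
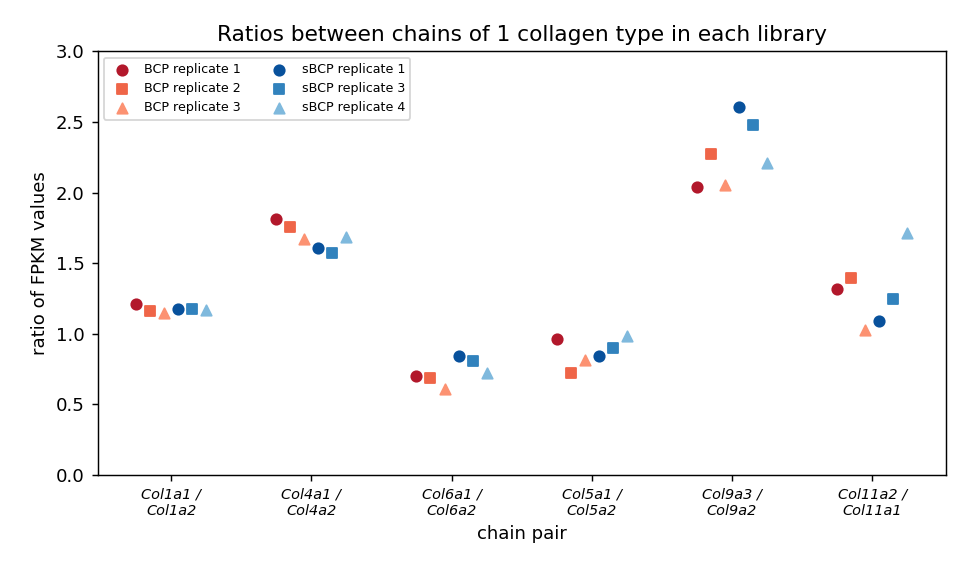
Ratio of FPKM values for 6 pairs of chains of 1 collagen type, on an axis from 0, with 1 point per library (BCP in red shades, sBCP in blue shades). The 6 points of Col1a1 to Col1a2 lie between 1.15 and 1.21, and for Col6a1 to Col6a2 the BCP points, 0.609 to 0.703, lie below the sBCP points, 0.719 to 0.840.

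Type VI collagen forms beaded filaments between fibrils and basement membranes. Col6a1 was at 28.4, 42.3 and 23.0 FPKM in BCP and 43.0, 31.5 and 26.7 FPKM in sBCP. Col6a2 was at 40.4, 61.9 and 37.8 FPKM in BCP and 51.2, 39.0 and 37.1 FPKM in sBCP. BCP replicate 2 and sBCP replicate 1 were the upper libraries for both genes, and the groups overlapped. Their differences had opposite signs, -0.12 for Col6a1 (95% interval from -0.71 to 0.46) and 0.12 for Col6a2 (from -0.37 to 0.60). The third main chain is described in the table under AABR07068316, outside the rule on symbols, at 5.13, 5.12 and 4.20 FPKM in BCP and 7.86, 4.88 and 5.04 FPKM in sBCP.

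Col6a5, a longer chain that can take the place of the third one, was the only tested collagen gene whose groups did not overlap. It was at 4.50, 3.64 and 4.58 FPKM in BCP and 5.54, 5.32 and 5.10 FPKM in sBCP. The means were 4.24 ± 0.526 and 5.32 ± 0.219 FPKM (SD, n = 3 each), and the difference was -0.27 and its standard error 0.115. The unadjusted p was 0.0477 and the adjusted p = 1.00 by limma, so it did not pass. Groups did not overlap with BCP lower in 1 of the 30 collagen genes and in 3.06% of all tested features, and with BCP higher in 0 of the 30 and in 2.34%. Col6a6, another chain of this kind, ranged from 1.48 to 3.82 FPKM with its highest value in sBCP replicate 1 (difference of -0.05, 95% interval from -0.71 to 0.61), and Col6a4 stayed at or under 0.380 FPKM.

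Of the FACIT genes, Col16a1 was the most abundant, at 31.7, 35.8 and 32.1 FPKM in BCP and 34.7, 29.7 and 28.0 FPKM in sBCP (difference of 0.11, 95% interval from -0.12 to 0.34). Col14a1, which binds the surface of type I fibrils, was at 16.4, 11.8 and 16.2 FPKM in BCP and 21.8, 16.0 and 14.4 FPKM in sBCP. Col12a1, its close relative in dense sheaths, was at 4.87, 5.19 and 4.82 FPKM in BCP and 8.49, 7.03 and 4.35 FPKM in sBCP. Both were highest in sBCP replicate 1 and their groups overlapped. The differences were -0.21 for Col14a1 (95% interval from -0.64 to 0.21) and -0.31 for Col12a1 (from -0.80 to 0.17). Without sBCP replicate 1 they were -0.049 and -0.14, and without sBCP replicate 4 they were -0.33 and -0.55. Col12a1 had the smallest p-value of the collagen genes in the authors' deposited table, 0.0503 with a q-value of 1.

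Type IX collagen coats the type II fibrils of cartilage. Col9a3 was at 20.9, 18.7 and 24.4 FPKM in BCP and 22.5, 21.8 and 21.5 FPKM in sBCP. Col9a2 was at 10.2, 8.23 and 11.9 FPKM in BCP and 8.65, 8.80 and 9.73 FPKM in sBCP. Col9a1, the third chain of the cartilage trimer, was at 0.847, 0.319 and 1.03 FPKM in BCP and 0.427, 0.681 and 0.171 FPKM in sBCP and was not tested, with 1 library over 1 FPKM. BCP replicate 2 was lowest for Col9a2 and Col9a3, and the groups overlapped in all 3 genes. The difference of 0.13 for Col9a2 was the highest among the 30 genes (95% interval from -0.19 to 0.45), and that of Col9a3 was -0.05 (from -0.29 to 0.19). For Col9a2 it was 0.018 without BCP replicate 3 and 0.26 without BCP replicate 2.

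The multiplexins lie in the zone of basement membranes, and Col18a1 yields the fragment endostatin. Col18a1 was at 15.6, 17.7 and 13.1 FPKM in BCP and 15.3, 14.1 and 14.0 FPKM in sBCP, and Col15a1 at 12.1, 14.1 and 13.0 FPKM in BCP and 13.6, 13.0 and 10.0 FPKM in sBCP. BCP replicate 2 was highest for both. The differences were 0.08 (95% interval from -0.19 to 0.35) and 0.09 (from -0.20 to 0.39).

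Type VIII collagen forms short-chain networks around vessels and in the eye. Col8a2 was at 10.6, 14.2 and 10.3 FPKM in BCP and 11.7, 10.5 and 12.7 FPKM in sBCP, with a difference of -0.0016 (95% interval from -0.32 to 0.32). Col8a1 was at 1.18, 2.62 and 1.09 FPKM in BCP and 3.69, 3.08 and 1.32 FPKM in sBCP. It had the lowest difference of the 30 genes, -0.48, with an interval from -1.24 to 0.29, and the largest span over libraries, 3.39-fold. Without sBCP replicate 1 the difference was -0.27, and without sBCP replicate 4 it was -0.78. Its upper libraries were sBCP replicates 1 and 3 and BCP replicate 2.

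Transmembrane collagens are held in the cell surface. Col23a1 was at 11.5, 5.24 and 10.2 FPKM in BCP and 10.1, 9.97 and 8.52 FPKM in sBCP, so BCP replicate 2 stood below the other 5 libraries. Its difference was -0.14 (95% interval from -0.73 to 0.46) and 0.17 without that library. Col13a1, which helps to hold the neuromuscular junction together, was at 1.06 to 1.22 FPKM in BCP and at 1.96, 1.15 and 1.08 FPKM in sBCP (difference of -0.13, 95% interval from -0.54 to 0.28). Col25a1 was at 0.201 to 0.553 FPKM.

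Col28a1, a collagen known from peripheral nerve in the mouse, was at 28.0, 27.1 and 30.1 FPKM in BCP and 32.0, 25.2 and 24.2 FPKM in sBCP. The groups overlapped, with a difference of 0.07 and a 95% interval from -0.20 to 0.34. Col26a1 was at 0.249 to 0.634 FPKM and Col7a1, the anchoring fibril chain of skin, at 0.0824 to 0.363 FPKM. The other untested genes with at least 0.3 FPKM in a library were Col22a1, at 0.719 to 1.02 FPKM with 1 library over 1 FPKM, Col20a1, at 0.482 to 0.893 FPKM, and Col10a1, at 0.395 to 0.701 FPKM. Col19a1 and Col17a1 were at most 0.267 and 0.104 FPKM, and were listed at 0 in sBCP replicate 4, Col17a1 also in BCP replicate 1.

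The collagen genes differed among themselves in which library was extreme. sBCP replicate 1 was the highest library for 19 of the 30 tested genes, where it was so for 28.5% of all tested features, and the lowest for 0. BCP replicate 3 was the lowest library for 10 genes (13.1% of all features), among them Col1a1, Col1a2, Col3a1, Col4a1, Col4a2 and Col6a1. sBCP replicate 4 was also lowest for 10 genes (21.6% of all features), among them Col5a2, Col12a1 and Col28a1. BCP replicate 2 was highest for 5 genes, namely Col6a2, Col16a1, Col18a1, Col15a1 and Col8a2 (21.0% of all features), and lowest for 8 (16.1% of all features), namely Col5a3, Col9a3, Col14a1, Col9a2, Col23a1, Col2a1, Col6a5 and Col11a2. The median span from lowest to highest library was 1.71-fold for the tested collagen genes and 1.36-fold for all tested features.

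The markers of other cell types differed between the libraries as well. The summed level of 7 fibroblast markers was 118, 221 and 120 FPKM in BCP and 249, 211 and 133 FPKM in sBCP, and sBCP replicate 1, BCP replicate 2 and sBCP replicate 3 led both this sum and the collagen sum. Of the 7, all were tested and had differences below 0 (54.5% of all features), and 0 passed. In 2 of the 7, Dpt and Pi16, named after their values were seen, all BCP values were below the sBCP values (3.06% of all features). Differences were also below 0 in 7 of 8 Schwann cell markers and 6 of 8 markers of pericytes and smooth muscle. Of tested markers of meninges and perineurium 4 of 6 were below 0, of macrophages 3 of 7 and of endothelium 2 of 5. The endothelial markers summed to 28.2, 31.8 and 24.4 FPKM in BCP and 30.5, 29.9 and 22.4 FPKM in sBCP, lowest in sBCP replicate 4. The sum of 8 Schwann cell markers was 9355, 6651 and 8153 FPKM in BCP and 10510, 8046 and 8614 FPKM in sBCP, lowest in BCP replicate 2. The sum of 8 macrophage markers was 57.6, 167 and 29.0 FPKM in BCP and 55.8, 70.6 and 42.8 FPKM in sBCP, highest in BCP replicate 2. Markers of pericytes and smooth muscle, 8 in all, summed to 109, 91.5 and 67.0 FPKM in BCP and 152, 123 and 84.5 FPKM in sBCP. Of these 8, Des was at 2.78, 2.79 and 2.08 FPKM in BCP and 16.1, 9.59 and 8.40 FPKM in sBCP (limma adjusted p = 0.0568). All BCP values of Des were below its sBCP values, as in 10 of the 11 skeletal muscle markers. Markers of meninges and perineurium, 7 in all, summed to 604, 1044 and 407 FPKM in BCP and 681, 923 and 673 FPKM in sBCP. The sums of macrophages, of pericytes and smooth muscle, and of meninges and perineurium, like that of the collagen genes, were lowest in BCP replicate 3. That of the fibroblast markers was lowest in BCP replicate 1. The part of these cell types in the collagen values was not tested.

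**Figure D4:**
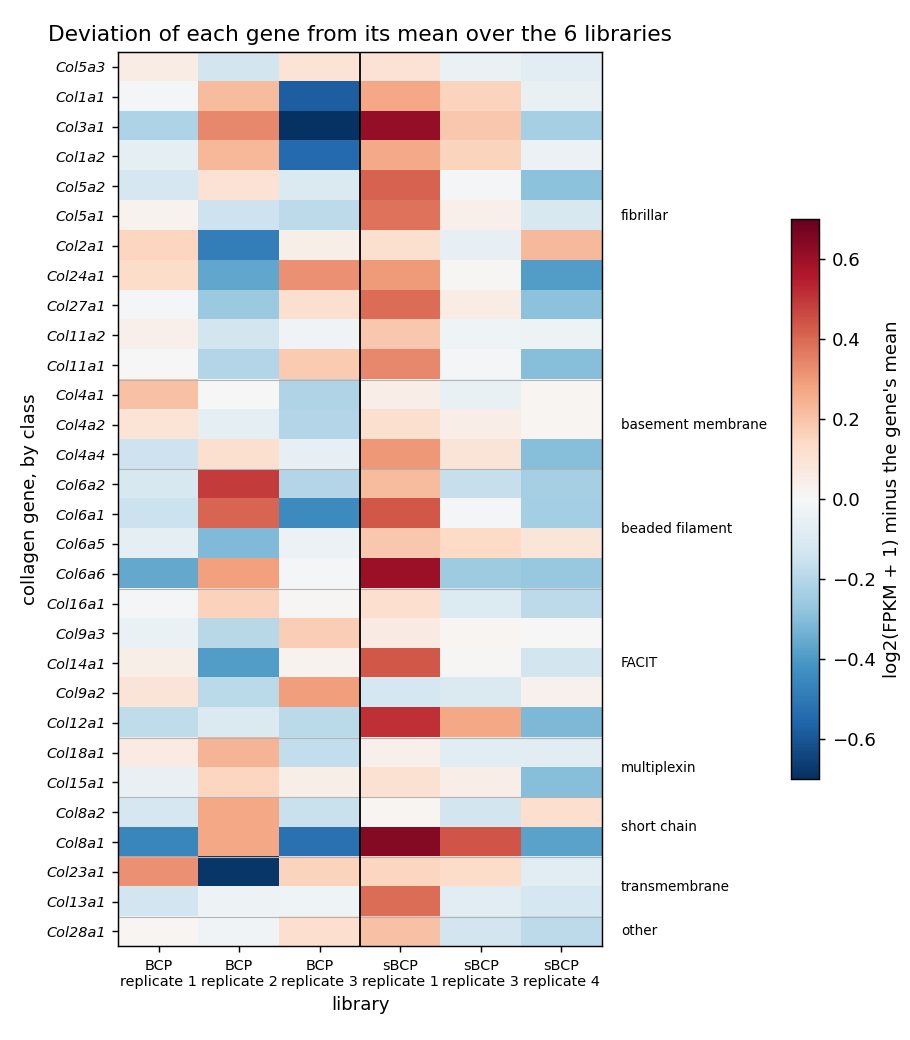
Deviation of log2(FPKM + 1) from the gene's mean over the 6 libraries for the 30 tested collagen genes, ordered by class, with BCP left and sBCP right of the line. Red is above and blue below the mean. sBCP replicate 1 is the highest library for 19 genes, and BCP replicate 2 is the highest for 5 and the lowest for 8.

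**Figure D5:**
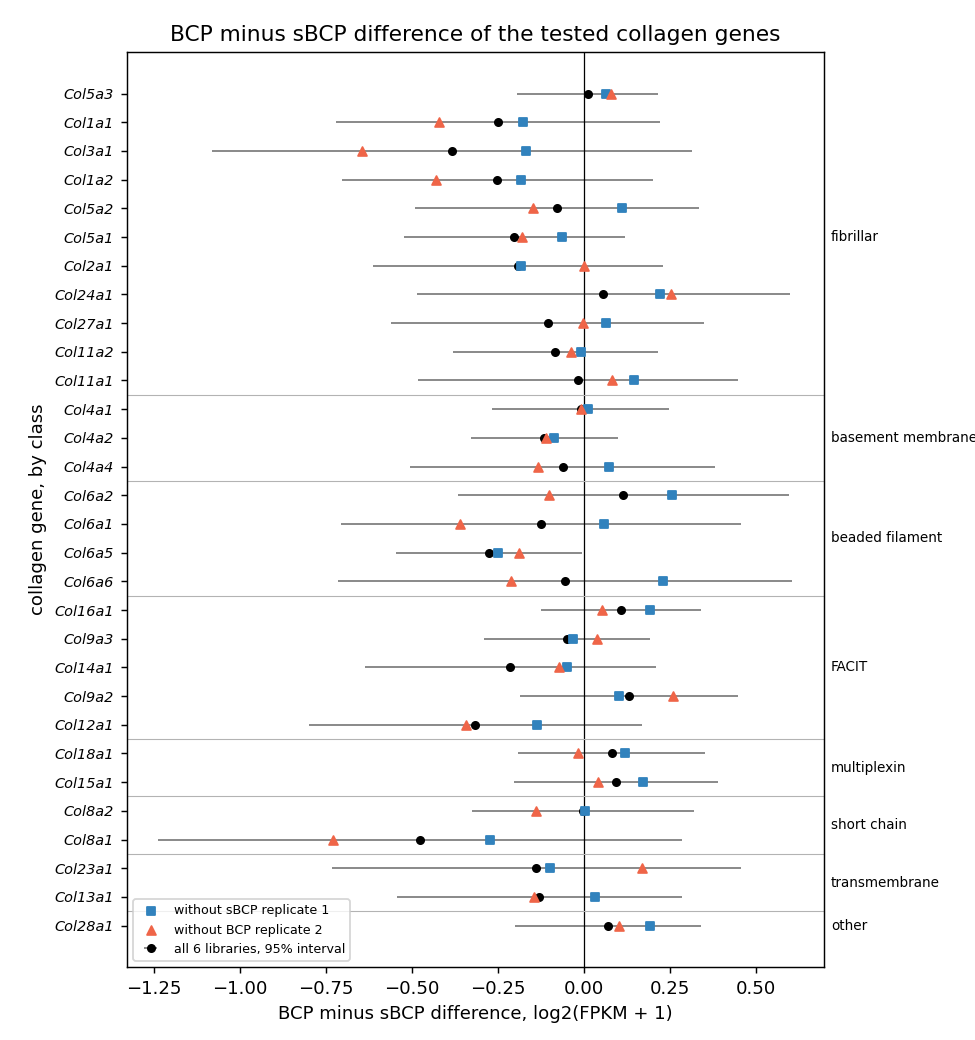
BCP minus sBCP difference on the log2(FPKM + 1) scale for the 30 tested collagen genes, with 95% intervals from limma in black, and the differences without sBCP replicate 1 (squares) and without BCP replicate 2 (triangles). Of the 30 differences 22 lie below 0 with all libraries, and 13 without sBCP replicate 1.

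Genes that fold, trim, crosslink and bind collagen were listed as 7 groups, with 59 members tested. By limma 0 passed in either direction, 1 had an unadjusted p under 0.05 (1.98% of all features) and 37 had a difference below 0 (54.5% of all features). Of 16 genes of folding and modification 10 were above 0 and 6 below. The collagen chaperone Serpinh1 was at 117, 155 and 93.5 FPKM in BCP and 135, 118 and 125 FPKM in sBCP, and its extremes, BCP replicates 2 and 3, overlapped the sBCP libraries on both sides. The proline isomerase Ppib ranged from 97.6 to 119 FPKM, the prolyl hydroxylase subunit P4hb from 73.8 to 88.2 FPKM and the lysyl hydroxylase Plod1 from 30.9 to 34.5 FPKM. Over the 7 groups 2 of the 59 genes had BCP values that were all below the sBCP values (3.06% of all features), P4ha1 and Smad7, both named after their values were seen. P4ha1, a catalytic prolyl hydroxylase subunit, was at 19.5, 22.2 and 19.3 FPKM in BCP and 23.9, 23.9 and 23.1 FPKM in sBCP (difference of -0.21, unadjusted p = 0.0316, limma adjusted p = 1.00).

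Of 6 tested genes of procollagen trimming 4 were below 0. Pcolce, which speeds the removal of the carboxyl propeptide, was at 22.0, 26.5 and 16.3 FPKM in BCP and 27.5, 25.3 and 21.1 FPKM in sBCP. The protease Bmp1 ranged from 10.8 to 20.7 FPKM, Adamts2 from 3.27 to 5.76 FPKM and Tll1 from 1.39 to 2.81 FPKM. Of the lysyl oxidases, which crosslink collagen, 4 were tested and 3 were below 0. Loxl1 was at 2.80 to 6.62 FPKM, Loxl3 at 3.52 to 4.94, Loxl2 at 1.48 to 3.81 and Lox at 0.455 to 1.89 FPKM.

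Of the collagen receptors 5 were tested, 4 of them below 0. The integrin subunit Itgb1 ranged from 104 to 126 FPKM and the receptor kinase Ddr1 from 33.8 to 38.0 FPKM, while the collagen uptake receptor Mrc2 was at 2.29 to 6.57 and Ddr2 at 1.47 to 2.94 FPKM. The fibril proteoglycans, small proteins that bind fibrils, had 6 tested members, and the differences of all 6 were below 0 (median of -0.28). Their leading member Dcn was at 65.7, 134 and 76.3 FPKM in BCP and 140.1, 121 and 73.5 FPKM in sBCP, with a difference of -0.29 and overlapping groups. Bgn ranged from 33.4 to 81.7 FPKM, Lum from 14.6 to 41.7 and Prelp from 9.82 to 20.9 FPKM. Dcn and Lum are also among the fibroblast markers above.

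The basement membrane partners of type IV collagen had 10 tested members, 4 above 0 and 6 below (median of -0.02). The laminin chain Lamb1 was at 39.1, 34.9 and 34.6 FPKM in BCP and 49.0, 36.2 and 36.5 FPKM in sBCP. Lamb2 ranged from 30.0 to 41.5 FPKM, the laminin linker Nid1 from 26.6 to 44.9 and Lamc1 from 25.3 to 32.5 FPKM. Of 12 genes of TGF-beta signalling, a pathway known to raise collagen transcription, 4 were above 0 and 8 below. Tgfbr2 ranged from 13.9 to 20.4 FPKM, Tgfbr3 from 13.1 to 17.9 and Smad2 from 8.72 to 13.9 FPKM. Tgfb1 was at 7.74, 17.9 and 5.73 FPKM in BCP and 8.64, 10.1 and 7.48 FPKM in sBCP, highest in BCP replicate 2. Smad7, an inhibitor of the pathway, was at 1.03, 1.24 and 1.07 FPKM in BCP and 1.30, 1.75 and 1.57 FPKM in sBCP (difference of -0.26, limma adjusted p = 1.00).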

How the data were processed

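Polyadenylated RNA of 6 dorsal root ganglion samples was measured, 3 of the BCP and 3 of the sBCP group, with groups and replicate numbers from the sample titles. The authors deposited, per the file headers, the FPKM of each Ensembl rat gene in each sample, with a fold change, its log2, a p-value and a q-value from their own comparison. The aligner, the counting tool, its use of strand and the genome build are not given in the sources used here. Absolute depth is unknown, since FPKM hold no counts. The most frequent ratio between libraries among single-transcript features under 0.5 FPKM placed the other 5 libraries at 1.11 to 1.31 times the depth of BCP replicate 1.

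Features of at least 1 FPKM in at least 3 of 6 libraries (13710 of 23800) entered a fit of log2(FPKM + 1) by limma 3.58.1 (R 4.3.3) with a variance trend, no covariate and Benjamini-Hochberg adjustment over all of them at 0.05. On this scale the change of a low gene comes out too small. Separate animals are not stated by the labels, so the p-values rest on a spread between samples that may be technical only. The fit was tested on simulated data with known differences of 1 and 2 on the log2 scale and with spreads shuffled between features. Differences as small as those of the collagen genes were not simulated. Ratios between chains of 1 collagen type were compared by an exact 2-sided permutation test, which cannot go below 0.1 with 3 against 3. The plan held these ratios as a description only, so the permutation test was not planned.

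Every tested collagen gene is named, and of the untested ones those with at least 0.3 FPKM in a library. Of each list of related genes, the 4 with the highest mean are named. The members and lists were chosen with earlier results of these data known. Pseudocounts, filters, scalings, the variance model and a replicate block were varied as alternatives, and each replicate was left out in turn. Of the genes listed, 10 were not found under the symbol looked up and so were not analysed here. Promoter windows are RefSeq's (GRCr8), and protein sequences were not used here. Figures were drawn with matplotlib 3.10.9.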

Additional observations from a re-analysis of the deposited data

How the results depend on the processing

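Under all 14 alternatives 0 collagen genes passed in either direction. They gave 419 differences of tested collagen genes, of which 378 kept their direction and 41 reversed, in 19 genes, while 11 genes, among them Col1a1, Col1a2, Col3a1, Col4a2 and Col6a5, kept theirs throughout. Features called higher over the whole table, 2 as reported, were 1 with no filter, 1 with at least 1 FPKM in all samples, 10 with the replicate block and 0 to 7 without 1 library; those called lower, 23 as reported, were 8 with at least 1 FPKM in all samples and 13 to 24 without 1 library. The 22 collagen genes below 0 became 13 without sBCP replicate 1 and 25 without sBCP replicate 4. The same replicate numbers did not deviate together (correlations of 0.064 for number 1 and -0.10 for number 3, so the numbers are not shown to pair samples). Number 2 was present in BCP alone and number 4 in sBCP alone. The differences with the replicate block therefore rest on replicates 1 and 3 of each group, and BCP replicate 2 and sBCP replicate 4 do not enter them. With the replicate block 28 features were called lower, 23 collagen genes were below 0 with a median of -0.152, the differences of Col1a1 and Col1a2 were -0.51, of Col3a1 -0.86, of Col8a1 -1.03, of Col12a1 -0.58 and of Col9a2 0.31, the lowest adjusted p of a collagen gene was 0.0917 (limma, Col3a1), and the reversed differences were -0.082 for Col15a1, -0.011 for Col16a1, -0.035 for Col18a1, 0.097 for Col23a1, 0.069 for Col2a1, -0.19 for Col6a2 and 0.025 for Col9a3. Median-ratio rescaling reversed Col4a1 to 0.0095 and Col8a2 to 0.015, and quantile normalization Col11a1 to 0.019, Col5a3 to -0.0063 and Col8a2 to 0.023. Without 1 library at a time the differences ranged as follows in the genes that reversed: Col5a3 -0.033 to 0.079, Col4a1 -0.11 to 0.10, Col6a2 -0.10 to 0.26, Col6a1 -0.36 to 0.066, Col28a1 -0.0033 to 0.19, Col9a3 -0.15 to 0.038, Col5a2 -0.24 to 0.11, Col18a1 -0.015 to 0.19, Col15a1 -0.030 to 0.17, Col8a2 -0.14 to 0.077, Col23a1 -0.33 to 0.17, Col2a1 -0.32 to 0.0021, Col24a1 -0.12 to 0.25, Col27a1 -0.27 to 0.066, Col6a6 -0.21 to 0.23, Col11a1 -0.17 to 0.15, Col4a4 -0.23 to 0.074 and Col13a1 -0.22 to 0.033. In the genes that kept their direction without 1 library the ranges were Col1a1 -0.42 to -0.023, Col1a2 -0.43 to -0.041, Col3a1 -0.65 to -0.13, Col4a2 -0.19 to -0.041, Col5a1 -0.31 to -0.063, Col6a5 -0.32 to -0.19, Col8a1 -0.78 to -0.27, Col9a2 0.018 to 0.26, Col11a2 -0.12 to -0.0087, Col12a1 -0.55 to -0.14, Col14a1 -0.33 to -0.049 and Col16a1 0.043 to 0.19. The cause was not tested. Absolute depth is unknown, and 95% intervals of the tested collagen genes had a median half-width of 0.42 against 0.30 for all features.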

Other observations

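Beside the 43 genes chosen by symbol, 6 features of the table are described as collagen chains under other names. LOC108348074, described as an alpha-1(XV)-like chain on chromosome 5, was at 8.89, 11.9 and 6.39 FPKM in BCP and 10.2, 4.86 and 13.1 FPKM in sBCP, a wider span (2.71-fold) than that of Col15a1 (1.40-fold). LOC103693323, described as an alpha-1(XXIII) chain on chromosome 10, was at 0.629 to 1.35 FPKM in BCP and 0.922 to 2.06 FPKM in sBCP. A second feature described as the alpha 2 chain of type I, NEWGENE_621351, was listed at 0 in every library. LOC100911886, described as an alpha-2(XI)-like chain, was at 0.137 to 0.682 FPKM, and LOC102553088, described as an alpha-1(XXV)-like chain, at 0.0760 to 0.231 FPKM. Where such features share sequence with Col15a1, Col23a1, Col1a2, Col11a2 or Col25a1, reads can be split between them. The values of those genes are uncertain to that extent.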
